A study of Mus musculus with 36 samples.

Results

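Mouse knees with an injured anterior cruciate ligament (ACL) and treatment with a protein kinase C (PKC) inhibitor were compared with sham knees by total RNA sequencing. The comparison rests on 3 inhibitor and 3 sham libraries, which are 6 of the 36 samples of the series and were chosen by the sample names that head the columns of the deposited count table. Sham mice had no ACL injury. Inhibitor mice had an ACL injury and were given a PKC inhibitor, and both groups were collected at 24 h. A further group of 3 knees, injured and given 0.9% saline (vehicle), was collected at the same time, enters the same fit and is given beside the results. Each group has 3 biological replicates, per the series' design text. The name and dose of the inhibitor and the strain, age and sex of the mice are not given in the sources used here. Injury and inhibitor were both absent in the sham mice, so within this comparison their shares in a difference cannot be told apart. The columns of the table stand in another order than the input files in the command of its header, so each value belongs to a group as far as the column names are right. The labels of these samples name knee joint tissue, while a protocol text on other samples of the series speaks of cartilage for the same set.

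The ACL holds the tibia in place under the femur, and its rupture is a common start of post-traumatic osteoarthritis. In an injured joint, synovial fibroblasts, macrophages and chondrocytes release chemokines that draw in blood leukocytes, and proteases that cut the collagen and proteoglycan of cartilage. PKC isoforms are kinases that respond to diacylglycerol, and several also to calcium. Their signals reach the transcription factors AP-1 and NF-kB, and also Hippo signalling, in which kinases keep the coactivators YAP and TAZ out of the nucleus. The bone ends of a mouse knee enclose red marrow, in which neutrophils, B cells and red cells mature.

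The libraries held 124.3 to 202.1 M counts, of which 1.12 to 4.65 M lay on protein-coding genes. Inhibitor 1 and 2 differed from the other 7 in RNA make-up. 7SL RNA genes took 91.5% and 91.2% of their counts against 96.7% to 98.2%, which left 11.9 and 11.4 M counts outside them against 3.28 to 5.25 M. In these 2 libraries 21397 and 21324 genes had a count against 17758 to 19109, and the TMM factors were 1.73 and 3.64 against 0.633 to 1.01. The U3 RNA genes took 53.6% of the counts outside 7SL in inhibitor 1 and 9.14% to 38.9% elsewhere. The part of these differences in the results was not tested. The markers showed a mixed joint sample: cartilage, bone, marrow, muscle and synovial genes were all counted, whereas 19 of 22 T and NK cell genes were too low to test. Inhibitor 1 also stood apart in its expression pattern. Its correlation with them was 0.844 to 0.887 on log2 CPM, and it lay at -77.9 on the second principal component where the others lay between -8.57 and 35.8. Summed skeletal muscle genes reached 137400.0, 8895 and 18600.0 normalised counts in inhibitor 1 to 3 and 28470.0, 33260.0 and 67370.0 in sham 1 to 3. Normalised counts are counts scaled to the same effective library size, namely the mean of the 9. The marker genes of fat and of blood vessel wall were also highest in inhibitor 1, while its chemokine genes were lower than in inhibitor 2 and 3. Results that rest on this library are therefore given with and without it.

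Of 13823 genes tested, 546 (3.95%) differed between inhibitor and sham knees at an adjusted p under 0.05 by edgeR's quasi-likelihood test, which is used for every adjusted p below. Of these, 175 (1.27%) rose and 371 (2.68%) fell, where rose and fell mean higher and lower in inhibitor than in sham knees. Both shares are given beside the counts of calls in the gene lists below. The lists and their members were chosen with earlier results of these data known, so these counts are a description. The genes that rose were led by chemokines, acute-phase proteins and mediators of inflammation. Those that fell held genes of maturing neutrophils, B cells, red cells, dividing cells and cartilage. All 546 had groups that did not overlap, which was true of 3159 tested genes (22.9%) in all. The change was more than 2-fold for 446 of the 546, and 484 were protein-coding. Of the 546, 34 belong to multicopy RNA classes, and 25 of the falls are copies of the 5S ribosomal RNA gene. Such copies may share reads, so their calls are not separate, and the shares above count them in. The median log2 fold change over all tested genes was 0.03, and 52.4% of the values were above 0. The same fit called 42 genes (0.304%) between vehicle and sham knees and 101 (0.731%) between inhibitor and vehicle knees. Both of these share libraries with the comparison reported here.

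**Figure D1:**
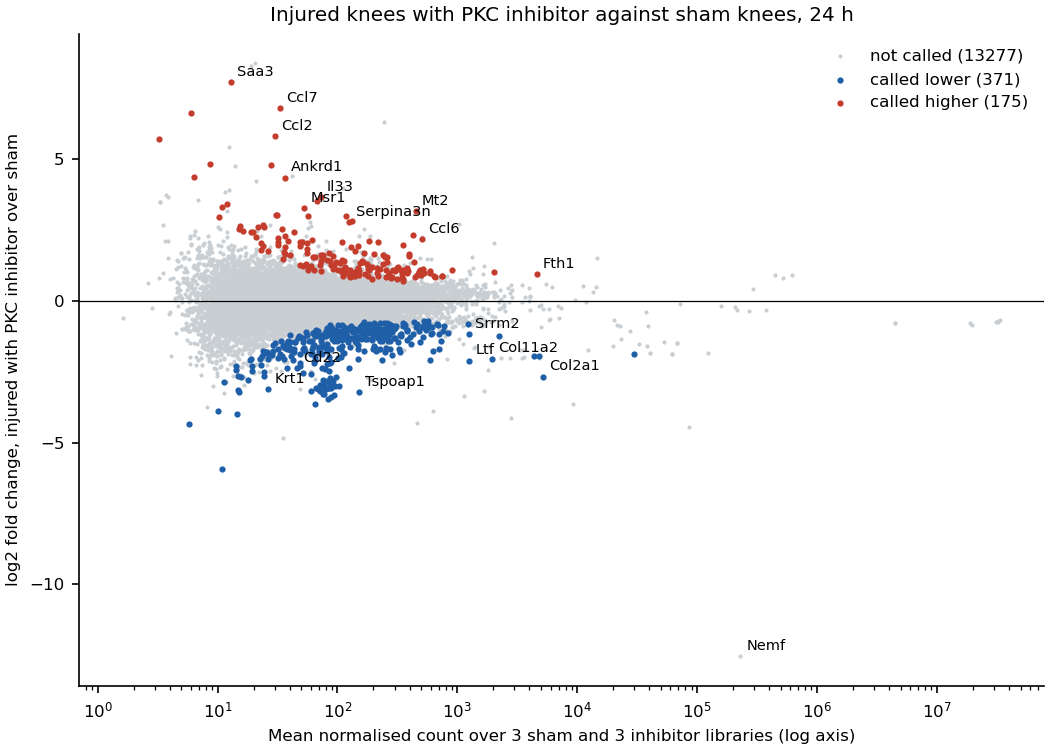
Log2 fold change of each tested gene, inhibitor over sham (vertical axis), against its mean normalised count over the 6 libraries (horizontal log axis); red points rose, blue points fell and grey points did not pass the test. There are 371 blue and 175 red points; Nemf, at -12.54, is grey, and its count was high in sham 1 alone.

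The number of calls depended on single libraries. It ran from 141 (without sham 1) through 153 (without sham 3) to 641 (without inhibitor 3) and 841 (without inhibitor 1), and every call shared with the full fit kept its direction. The groups of these shared genes did not overlap in the full fit, so a change of direction was nearly barred in advance. Without inhibitor 1, 338 genes rose and 503 fell, and 458 of the 546 remained. Without inhibitor 1 and 2 together, a setting added after the data were seen, 174 genes passed and 128 were shared. The fit of the 6 compared libraries alone called 198 genes, 196 of them shared. In all, 78 calls (27 higher, 51 lower) held in each of 17 other fits, which changed the normalisation, filter, test, covariates or libraries.

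Chemokine genes, which encode small secreted proteins that guide leukocytes, had the highest median of the gene lists. Of these, 7 of 21 tested chemokine and receptor genes rose and 1 fell, with 17 log2 fold changes above 0 and a median of 1.96. Another 9 listed members were too low to test. Ccl7 (chr11:82045712-82047525, plus strand), which attracts monocytes, stood at 0, 1.31 and 0 normalised counts in sham 1 to 3 and at 21.8, 107 and 68.8 in inhibitor 1 to 3. Ccl2, the main ligand of the monocyte receptor Ccr2, stood at 0, 0 and 3.77 in sham and 15, 111 and 50.6 in inhibitor 1 to 3. For both genes each inhibitor library lay above each sham library, and inhibitor 1 was the lowest of the 3. Ccl7 had 1 count over the sham libraries and 357 over the inhibitor libraries, a ratio after scaling of 165 (95% interval 29.4 to 6518), which covers counting error only (adjusted p = 0.0032). For Ccl2 the ratio was 79.3 (95% interval 21.8 to 657) with an adjusted p of 0.03. Both ratios pool the counts of a group, so larger libraries weigh more. The estimates of edgeR, to which the adjusted p belongs, were 113-fold for Ccl7 and 56.1-fold for Ccl2. The call of Ccl7 held with each of the 9 libraries left out in turn, whereas that of Ccl2 was lost without sham 1, 2 or 3, vehicle 1 or inhibitor 3 (adjusted p up to 0.14, without sham 1). In vehicle knees, Ccl7 stood at 102 ± 12.9 (SD, n = 3) and Ccl2 at 101 ± 42.6.

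Ccl6, a myeloid CC chemokine, stood at 160.5, 223 and 162 normalised counts in sham 1 to 3 and 536, 1159 and 798 in inhibitor 1 to 3, a 4.57-fold rise (log2 SE 0.30, adjusted p = 0.0032). Its neighbour Ccl9 rose 3.89-fold (log2 SE 0.34, adjusted p = 0.0086) and lost its call without sham 3 (adjusted p = 0.056). Cxcl14, a chemokine of epithelia and fibroblasts, stood at 74.4, 80.0 and 100.0 in sham and 286, 463 and 312 in inhibitor 1 to 3. It rose 4.2-fold (log2 SE 0.28, adjusted p = 0.0032), with no overlap between the groups. Pf4, a platelet and macrophage chemokine, rose 2.53-fold (adjusted p = 0.02). Its call held in 5 of the 9 fits that leave out 1 library, with an adjusted p up to 0.099 (without sham 1). The member that fell was Cxcr4, the receptor that retains leukocytes in marrow, at 215, 229 and 268 in sham and 51.8, 130.1 and 101 in inhibitor 1 to 3 (2.5-fold, log2 SE 0.28, adjusted p = 0.019). That call was lost without sham 1, 2 or 3 (adjusted p up to 0.074, without sham 3). The neutrophil attractants Cxcl1, Cxcl2 and Cxcl5 did not pass the test with all libraries (adjusted p = 0.17, 0.054 and 0.072). Cxcl5 had 1.5, 49.1 and 23.4 normalised counts in inhibitor 1 to 3, so inhibitor 1 lay close to the sham level of 0, 1.31 and 0. Without inhibitor 1 these 3 passed (adjusted p = 0.0021, 0.011 and 0.0001), and the list count became 13 up and 1 down. The lowest count of calls with 1 library left out was 3 without sham 3.

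Cytokines and mediators rose in part: 5 of 22 tested members rose and none fell, with 19 log2 fold changes above 0 and a median of 0.99. Il33 (chr19:29925114-29960718, plus strand) encodes a nuclear alarmin that damaged stromal and endothelial cells release. It stood at 9.3, 15.7 and 5.66 normalised counts in sham 1 to 3 and 78, 204 and 122 in inhibitor 1 to 3. Every inhibitor library was far above every sham library, and the rise was 12.7-fold (log2 SE 0.42, adjusted p = 0.0012), a call that held with each of the 9 libraries left out in turn. Il1rl1, which encodes the receptor of IL-33, rose 3.12-fold (adjusted p = 0.038). Il1r1, the signalling receptor of IL-1, rose 2.63-fold (adjusted p = 0.031). Tnfaip6, a secreted hyaluronan-binding protein that damps inflammation, rose 6.15-fold (adjusted p = 0.048). Lif, an interleukin-6 type cytokine, had 1 count over the sham and 92 over the inhibitor libraries, a ratio after scaling of 42.4 (95% interval 7.42 to 1693), with an adjusted p of 0.027. By edgeR the rise of Lif was 28.4-fold. Apart from Il33, each of these calls was lost in several of the fits that leave out 1 library. With 1 library left out, 3, 4, 2 and 5 of 9 fits still called Il1rl1, Il1r1, Tnfaip6 and Lif, with adjusted p up to 0.16 (without inhibitor 2), 0.15 (without sham 1), 0.22 (without inhibitor 2) and 0.12 (without sham 1). Il1b, the classical inflammasome product, had 30.0, 359 and 139 in inhibitor 1 to 3 against 90.7, 81.3 and 69.8 in sham, so inhibitor 1 was below and inhibitor 2 and 3 above every sham library (log2 fold change 1.14, adjusted p = 0.53). Without inhibitor 1, Il1b was 1.65 with an adjusted p of 0.036. The list count was then 10 up and 0 down, whereas it was 1 without sham 1 or 2 or inhibitor 2. Ptgs2, the inducible cyclooxygenase, had an adjusted p of 0.24 with and 0.018 without inhibitor 1. Il6 was too low to test.

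Acute-phase and metal-binding proteins rose as a group of 5 out of 11 tested, with none lower, 8 log2 fold changes above 0 and a median of 1.58. Serpina3n (chr12:104406729-104414329, plus strand), a secreted inhibitor of serine proteases, stood at 31.4, 40.6 and 22.6 in sham 1 to 3 and 211, 263 and 187 in inhibitor 1 to 3. The groups were well apart, and the rise was 6.88-fold (log2 SE 0.32, adjusted p = 0.0012), a call that held with each of the 9 libraries left out in turn. Vehicle knees stood at 302 ± 119. Serpina3n lies among close paralogues that may share reads, so its own level is uncertain to that extent. The metallothioneins Mt1 and Mt2, which bind zinc and copper, rose 4.98-fold (adjusted p = 0.018) and 9.02-fold (adjusted p = 0.035). Mt1 stood at 155, 159 and 113 in sham and 349, 1100.0 and 683 in inhibitor 1 to 3, so inhibitor 2 was highest and the groups did not overlap. The call of Mt1 was lost without sham 1, 2 or 3 (adjusted p up to 0.09, without sham 3), and that of Mt2 was lost without sham 1 or 3, vehicle 2 or 3 or inhibitor 2 or 3 (adjusted p up to 0.13, without sham 1). Saa3, an acute-phase apolipoprotein made by macrophages and stroma, had no count in the sham libraries and 9.0, 45.6 and 23.4 normalised counts in inhibitor 1 to 3, at least 5.96-fold higher against a floor of 3 counts per library (adjusted p = 0.018). Its call was lost without any 1 of the sham libraries (adjusted p up to 0.075, without sham 1). Ctsl, which encodes the lysosomal protease cathepsin L and whose exons overlap another gene, rose 3.1-fold (log2 SE 0.24, adjusted p = 0.0032) and kept its call with each library left out. The neutrophil siderophore carrier Lcn2, in the same list, was at a log2 fold change of -0.85 (adjusted p = 0.15).

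**Figure D2:**
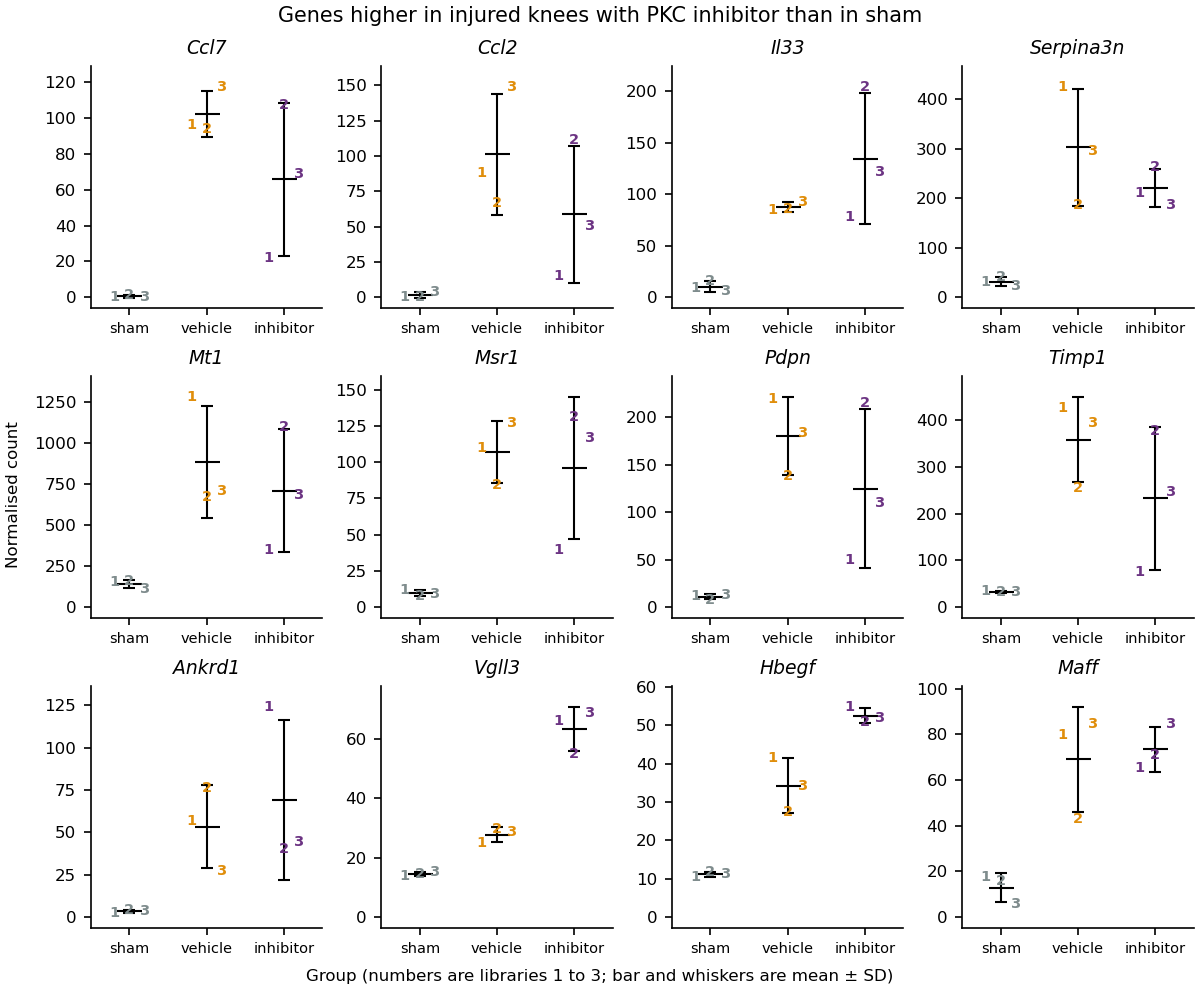
Normalised count (vertical axis, from 0, scaled per gene) of 12 genes that rose, in sham, vehicle and inhibitor knees; digits are libraries 1 to 3, and bars with whiskers are mean ± SD. In each panel the 3 inhibitor libraries lie above the 3 sham libraries; inhibitor 1 is the lowest of its group for Ccl7, Ccl2, Il33, Mt1, Msr1, Pdpn, Timp1 and Maff, and the highest for Ankrd1 and Hbegf.

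Immediate-early genes, transcription factors that respond to a stimulus without new protein synthesis, included 5 of 25 that rose and none that fell, at a median log2 fold change of 0.50. The small Maf protein gene Maff stood at 17.4, 15.7 and 5.66 in sham 1 to 3 and 65.2, 70.9 and 84.4 in inhibitor 1 to 3, a 5.39-fold rise (log2 SE 0.40, adjusted p = 0.0059) that held with each of the 9 libraries left out in turn. Atf3, a stress-induced factor of the AP-1 family, rose 6.17-fold (adjusted p = 0.02) and was lost without sham 1 or 3 (adjusted p up to 0.094, without sham 1). Fosl1, another AP-1 subunit, had no count in sham knees and 4.5, 22.2 and 9.09 in inhibitor 1 to 3, at least 2.74-fold higher (adjusted p = 0.022). The Fosl1 call was lost without sham 1, 2 or 3 or inhibitor 2 (adjusted p up to 0.085, without inhibitor 2). Fos and Egr1 were close to the threshold (adjusted p = 0.0497 and 0.048, rises of 2.29-fold and 3.04-fold) and kept their calls in 1 and 2 of the 9 fits with a library left out, with adjusted p up to 0.20 without sham 1 for both. Jun, the partner of Fos in AP-1, was at a log2 fold change of 0.88 with an adjusted p of 0.051, and Myc, a growth regulator, at -0.65 with one of 0.25. Without inhibitor 1 the list had 8 members up, and the count was 1 without sham 1 or 3.

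Of 31 tested genes for PKC isoforms, their substrates and Hippo components, 2 rose and none fell, with a median of 0.16. That is 2 of 31 beside 1.27% of all genes called higher. Transcript levels of the PKC isoforms do not check the treatment, which acts on the enzymes. Prkca stood at 106, 143 and 132 in sham and 112, 91.9 and 142 in inhibitor 1 to 3, with overlapping groups (log2 fold change -0.15, SE 0.26, adjusted p = 0.81). Prkcb, Prkcd and Prkce had log2 fold changes of -0.22, -0.50 and -0.19 (adjusted p = 0.72, 0.36 and 0.78). The members that rose were Vgll3, which encodes a cofactor of the TEAD transcription factors, and Wwtr1, which encodes TAZ. Vgll3 (chr16:65815257-65866368, plus strand) stood at 13.9, 14.4 and 15.1 in sham 1 to 3 and 66, 54.9 and 68.8 in inhibitor 1 to 3, and at 24.9, 29.7 and 28.6 in vehicle 1 to 3. The sham and the inhibitor libraries were each within a narrow range and far from each other, with the vehicle libraries between them. The rise over sham was 4.33-fold (log2 SE 0.35, adjusted p = 0.0059) and held with each of the 9 libraries left out in turn, while inhibitor against vehicle did not pass (log2 difference 1.17, SE 0.33, adjusted p = 0.11). Wwtr1 stood at 196, 325 and 241 in sham and 639, 392 and 479 in inhibitor 1 to 3 (1.98-fold, log2 SE 0.23, adjusted p = 0.03), and its call was lost without sham 1 or 3 or vehicle 3 (adjusted p up to 0.14, without sham 1). Yap1, the gene of its relative YAP, was at a log2 fold change of 0.43 (SE 0.19) with an adjusted p of 0.25.

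Among 23 tested target genes of YAP, TAZ and TEAD, 3 rose, beside 1.27% of all genes, and none fell, at a median of 0.36. Ankrd1 (chr19:36111961-36120099, minus strand), a repeat protein of stretched and wounded cells, stood at 2.33, 3.93 and 3.77 in sham 1 to 3 and 124, 40.1 and 44.1 in inhibitor 1 to 3. Inhibitor 1 was highest, and all 3 lay above every sham library. The rise was 20.5-fold (log2 SE 0.64, adjusted p = 0.0032), and vehicle knees stood at 53.3 ± 24.6. Ankrd1 is also a muscle gene, and the library with the highest Ankrd1 level had the most muscle RNA. Without inhibitor 1 its log2 fold change was 3.63 (adjusted p = 0.00076), and with the muscle level of each library as a covariate it was 4.56 (adjusted p = 2.5e-05). These refits are a description, and the part that muscle RNA had in this rise was not tested. Myof, a membrane repair protein, and Rbms3, an RNA-binding protein, rose 1.85-fold and 2.11-fold (adjusted p = 0.027 and 0.024). Rbms3 was lost without sham 1 or 3 (adjusted p up to 0.12, without sham 1), and Myof was lost without sham 1, 2 or 3, vehicle 3 or inhibitor 2 (adjusted p up to 0.12, without sham 1). The targets most often used as a readout, Ccn1 and Ccn2, stood at 57.3 ± 6.57 and 130.0 ± 16.4 in sham and 70.0 ± 9.41 and 168 ± 16.8 in inhibitor knees (SD, n = 3). They did not pass the test (adjusted p = 0.60 and 0.38).

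Of the 15 genes with the largest rises, 10 had a RefSeq promoter. C3ar1 and Mt2 carried AP-1 letters (TGANTCA), Ankrd1, Il33 and Timp1 carried TEAD letters (GGAATG), and Pdpn, Akr1b8, Chl1, Serpina3n and Tnfrsf12a carried neither. The promoters of 3 of them are shown as examples: the 2 with AP-1 letters, and Ankrd1, a known TEAD target with 2 matches. They are RefSeq sequences of build GRCm38.p6 and hold the 250 bases before the annotated start, read 5′ to 3′ on the gene's strand, with the motif letters in capitals. The window of Ankrd1 lies at chr19:36119845-36120094, minus strand, that of C3ar1 at chr6:122856158-122856407, minus strand, and that of Mt2 at chr8:94172368-94172617, plus strand. That of Ankrd1 lies within the span counted for this gene (chr19:36111961-36120099), whose start is thus not the RefSeq start used here.
Ankrd1: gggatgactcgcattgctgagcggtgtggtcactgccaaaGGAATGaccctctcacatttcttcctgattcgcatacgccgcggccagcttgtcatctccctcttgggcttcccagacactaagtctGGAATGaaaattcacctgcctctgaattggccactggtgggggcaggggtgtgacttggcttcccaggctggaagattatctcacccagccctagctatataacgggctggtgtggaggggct
C3ar1: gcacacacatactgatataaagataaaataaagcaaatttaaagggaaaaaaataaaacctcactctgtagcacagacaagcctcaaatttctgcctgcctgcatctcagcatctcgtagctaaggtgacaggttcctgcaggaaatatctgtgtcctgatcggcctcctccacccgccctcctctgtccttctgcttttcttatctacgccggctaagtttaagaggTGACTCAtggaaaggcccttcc
Mt2: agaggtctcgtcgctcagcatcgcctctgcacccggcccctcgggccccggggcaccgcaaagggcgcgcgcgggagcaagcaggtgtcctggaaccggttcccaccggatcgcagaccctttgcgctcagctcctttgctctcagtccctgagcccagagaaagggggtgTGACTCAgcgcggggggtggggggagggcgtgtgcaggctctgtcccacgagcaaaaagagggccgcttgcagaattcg
The TEAD letters of Ankrd1 begin 210 and 123 bases before the RefSeq start, and the AP-1 letters of C3ar1 and Mt2 begin 22 and 79 bases before theirs. RefSeq promoters (250 bases before to 50 after the start) were found for 123 of the 175 genes that rose and 272 of the 371 that fell. On either strand, AP-1 letters were in 10.6% of promoters of genes that rose, 3.22% of those that fell, 5.35% of tested genes and 7.81% of all promoters in the table. TEAD letters were in 15.6%, 10.8%, 12.2% and 14.7%, and the NF-kB consensus, with any base at its middle positions, was in 2.5%, 0.877%, 1.54% and 1.47%. These are matches of letters and carry no test.

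Macrophage genes had 2 of 32 tested members higher and 1 lower, beside 1.27% and 2.68% of all genes, and a median of 0.43. Of the 32 log2 fold changes, 25 were above 0, beside 52.4% of all tested genes. Msr1 (chr8:39581685-39642673, minus strand), the class A scavenger receptor, stood at 11.6, 7.87 and 9.43 in sham 1 to 3 and 39.8, 131 and 117 in inhibitor 1 to 3, a 9.77-fold rise (log2 SE 0.46, adjusted p = 0.0032). C3ar1, the receptor of the complement fragment C3a on myeloid cells, stood at 13.9, 13.1 and 9.43 and 42, 139.8 and 121, an 8.08-fold rise (log2 SE 0.46, adjusted p = 0.0038). In both genes the groups did not overlap, inhibitor 1 was the lowest of its group, and the call held with each library left out. C3ar1 was the sole complement gene of 20 tested to rise, beside 1.27% of all genes, and none fell. Cd68, a lysosomal marker of macrophages, rose 2.25-fold (adjusted p = 0.024), and its call was lost without sham 1 or 2 or inhibitor 2 or 3 (adjusted p up to 0.12, without sham 1). The member that fell was Cybb, which encodes gp91phox of the oxidative burst and which neutrophils also express, at 327, 261 and 313 in sham and 125, 162 and 97.3 in inhibitor 1 to 3 (2.32-fold, log2 SE 0.22, adjusted p = 0.0083), a call that held with each of the 9 libraries left out. Arg1, arginase of wound macrophages, had 33.8, 971 and 446 in inhibitor 1 to 3 against 10.5, 5.24 and 0 in sham. Inhibitor 2 and 3 were far above inhibitor 1, the spread was wide, and Arg1 did not pass (adjusted p = 0.08), but it did without inhibitor 1 (adjusted p = 0.0014). Without that library 7 members rose. Csf1r, Cd163 and Adgre1, markers shared by most tissue macrophages, had log2 fold changes of 0.09, 0.17 and 0.77 (adjusted p = 0.88, 0.74 and 0.17). These 3 were named after their values were seen and do not stand for the list. In bulk RNA, more or fewer cells of a type and more or less RNA per cell cannot be told apart, here and for every cell type below.

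Synovial and connective tissue fibroblast genes had 5 of 24 members higher and 1 lower, at a median of 0.24. Pdpn (chr4:143267431-143299564, minus strand), podoplanin of activated fibroblasts and lining cells, stood at 11.6, 7.87 and 13.2 in sham 1 to 3 and 49.5, 215 and 110.3 in inhibitor 1 to 3. The groups did not overlap, and inhibitor 2 was highest. Its rise was 11.7-fold (log2 SE 0.55, adjusted p = 0.0084), and the call was lost without sham 1 or 3 (adjusted p up to 0.056, without sham 1). Hbegf, a ligand of the EGF receptor made by lining fibroblasts and macrophages, stood at 10.5, 11.8 and 11.3 in sham and 54.8, 51 and 51.9 in inhibitor 1 to 3. Both groups lay within a narrow range, 4.66-fold apart (log2 SE 0.38, adjusted p = 0.0062), and the call held with each of the 9 libraries left out in turn. The hyaluronan enzymes Has2, a synthase, and Ugdh, which makes its precursor and whose exons overlap another gene, rose 5.53-fold and 2.6-fold (adjusted p = 0.033 and 0.029), with calls kept in 2 and 3 of 9 fits with a library left out (adjusted p up to 0.16 without inhibitor 2 for Has2 and 0.12 without sham 3 for Ugdh). Pi16, a marker of adventitial fibroblasts, fell from 211 ± 46.9 to 87.4 ± 24.4 (SD, n = 3 each; 2.4-fold, log2 SE 0.24, adjusted p = 0.011), and its call was lost without sham 3 (adjusted p = 0.057). Prg4, the gene of the lubricin that coats cartilage and synovium, stood at 963, 545 and 1856 in sham and 1095, 3150.0 and 2318 in inhibitor 1 to 3 and did not pass (adjusted p = 0.33). Without inhibitor 1 the list had 6 members higher, 5 lower and a median of -0.22, and the lowest count of calls was 1 without sham 3.

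Matrix proteases and their inhibitors had 3 of 27 members higher and 1 lower, beside 1.27% and 2.68% of all genes. Timp1, an inhibitor of metalloproteases, stood at 33.7, 31.5 and 32.1 in sham 1 to 3 and 74.3, 378 and 245 in inhibitor 1 to 3 (7.17-fold, log2 SE 0.56, adjusted p = 0.031). The sham libraries lay close together, the inhibitor libraries were spread over a wide range above them, and the call was lost without sham 1, 2 or 3, vehicle 1 or 3 or inhibitor 3 (adjusted p up to 0.13, without sham 3). Mmp19, a metalloprotease of synovium and macrophages, rose 8.01-fold (adjusted p = 0.038) and Plau, the urokinase that activates plasminogen, 3.21-fold (adjusted p = 0.013). Mmp19 was lost without sham 1, 2 or 3 or vehicle 1 (adjusted p up to 0.15, without sham 1), and Plau was lost without sham 1 or 2 (adjusted p up to 0.077, without sham 1). Mmp9, the gelatinase of neutrophils and osteoclasts, fell 2.09-fold (adjusted p = 0.045) and was called in 2 of 9 fits with a library left out (adjusted p up to 0.18, without sham 3). The collagenase gene Mmp13 stood at 572 ± 66.5 in sham and 551 ± 272 in inhibitor knees (adjusted p = 0.96). The aggrecanase genes Adamts4 and Adamts5 had log2 fold changes of 1.69 and 0.29 (adjusted p = 0.07 and 0.67). Mmp3, or stromelysin, was at 2.7 and did not pass (adjusted p = 0.21). Without inhibitor 1, 7 members rose and 2 fell, Mmp3 and Adamts4 among those that rose (adjusted p = 0.044 and 0.0097), and without sham 1 or sham 2 none passed.

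Genes of fibrous matrix had 2 of 30 members higher, beside 1.27% of all genes, and none lower. They were Lox, the enzyme that cross-links collagen (197 ± 39.2 in sham and 427 ± 99.9 in inhibitor knees, 2.17-fold, log2 SE 0.23, adjusted p = 0.015), and Itga5, the fibronectin receptor subunit (61.5 ± 21.2 and 165 ± 53.4, 2.65-fold, log2 SE 0.29, adjusted p = 0.016). The call of Lox was lost without sham 1 or 3 (adjusted p up to 0.09, without sham 1), and that of Itga5 was lost without sham 2 or 3 or inhibitor 2 (adjusted p up to 0.071, without sham 3). The fibrillar collagen genes Col1a1 and Col1a2, which bone also expresses, had log2 fold changes of -1.45 and -1.33 (adjusted p = 0.073 and 0.06), and Col3a1 of soft tissue one of -0.15 (adjusted p = 0.81; its exons overlap another gene). Fstl1, a secreted antagonist of BMP signals, rose 1.78-fold (adjusted p = 0.03), and its call was lost without sham 1, 2 or 3 (adjusted p up to 0.14, without sham 1).

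Stress and growth arrest genes added 3 of 22 p53 targets and 3 of 25 NRF2 targets that rose, with none lower. Cdkn1a, the cell cycle inhibitor p21, stood at 119.8, 142 and 90.5 in sham and 219, 301 and 286 in inhibitor 1 to 3 (2.28-fold, log2 SE 0.22, adjusted p = 0.0095). Srxn1, which repairs oxidised peroxiredoxins, stood at 79.1, 56.4 and 56.6 and 164, 273 and 219 (3.4-fold, log2 SE 0.26, adjusted p = 0.0032). Neither gene's groups overlapped, and both calls held with each library left out. Gadd45g and Ddit4, stress sensors, rose 2.82-fold and 2.65-fold (adjusted p = 0.039 and 0.029). The ferritin gene Fth1, which has many pseudogene copies that may share reads, and the carbonyl reductase gene Cbr2 rose 1.92-fold and 1.84-fold (adjusted p = 0.044 and 0.037). With 1 library left out, Gadd45g, Ddit4, Fth1 and Cbr2 were still called in 2, 6, 1 and 0 of 9 fits, with adjusted p up to 0.17 (without inhibitor 2), 0.13 and 0.17 (both without sham 1) and 0.14 (without sham 3). The clock genes Clock and Bhlhe40 rose 2.19-fold and 2.16-fold (adjusted p = 0.024 and 0.037), as 2 of 18 tested, beside 1.27% of all genes. They were called in 7 and 3 of the 9 fits that leave out a library (adjusted p up to 0.08 without sham 3 and 0.15 without sham 1). No gene passed among 23 of the unfolded protein response, 16 heat shock, 23 hypoxia and glycolysis, 32 oxidative phosphorylation and 33 ribosomal protein genes. At an unadjusted p under 0.05, edgeR found 4, 2, 7, 2 and 3 genes in these 5 lists, beside 2482 of all 13823 tested genes. In the same lists DESeq2 called 0, 1, 1, 0 and 1, and limma voom 0, 0, 0, 1 and 0. Without inhibitor 1, 4 hypoxia and glycolysis genes (3 higher, 1 lower), 1 heat shock gene (higher) and 1 oxidative phosphorylation gene (lower) passed.

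Granule genes of maturing neutrophils fell. They encode the proteins that marrow neutrophil precursors pack into their primary and secondary granules. Of 17 tested, 8 fell and none rose, beside 2.68% of all genes, and the median was -1.24. Ltf (chr9:111019271-111042767, plus strand), lactoferrin of the secondary granules, stood at 1874, 1516 and 2770.0 in sham 1 to 3 and 397, 591 and 440.0 in inhibitor 1 to 3. Mpo (chr11:87793581-87804413, plus strand), the myeloperoxidase of the primary granules, stood at 957, 675 and 1601 and 328, 369 and 296. In both, sham 3 was highest, the inhibitor libraries lay close together, and the groups did not overlap. Ltf fell 4.31-fold (log2 SE 0.26, adjusted p = 0.0022) and Mpo 3.24-fold (log2 SE 0.28, adjusted p = 0.0062). Prtn3, proteinase 3, fell 3.22-fold (log2 SE 0.29, adjusted p = 0.0074), and Elane, its neighbour that encodes neutrophil elastase, 2.64-fold (log2 SE 0.29, adjusted p = 0.015). The surface antigen gene Cd177 fell 3.47-fold (adjusted p = 0.0059), and the granule protein genes Camp, Ngp and Fcnb 2.71-fold, 2.36-fold and 3.13-fold (adjusted p = 0.011, 0.017 and 0.018). The calls of Ltf, Mpo, Prtn3, Cd177 and Camp held with each library left out. Those of Elane and Fcnb were lost without sham 3 (adjusted p = 0.071 and 0.088), and that of Ngp was lost without sham 1 or 3 (adjusted p up to 0.069, without sham 3). Between 5 (without sham 3) and 11 (without inhibitor 2) members passed with 1 library left out. The vehicle knees stood at 769.5 ± 173 for Ltf and 634 ± 147 for Mpo (SD, n = 3).

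Of 21 tested genes of mature neutrophils, 1 fell, namely Mmp9, beside 2.68% of all genes, and the median was -0.11. The difference between the lists was not tested. S100a8, a calprotectin subunit that fills mature neutrophils, stood at 6687, 5007 and 5363 in sham and 3498, 7118 and 3258 in inhibitor 1 to 3. Its partner S100a9 stood at 5536, 4537 and 5254 and 4054, 7010.0 and 2617. In both the groups overlapped, with inhibitor 2 highest (adjusted p = 0.67 and 0.83). Csf3r and Cxcr2, receptors of mature neutrophils, had log2 fold changes of -0.36 and 0.17 (adjusted p = 0.62 and 0.90).

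B lineage genes fell in 9 of 21 tested members and rose in none, with a median of -1.15. All 21 log2 fold changes were below 0, while 52.4% of all tested genes were above 0. Cd22 (chr7:30865402-30880342, minus strand), an inhibitory lectin of B cells, stood at 100.0, 72.1 and 58.5 in sham 1 to 3 and 7.5, 17.1 and 20.8 in inhibitor 1 to 3. The groups did not overlap, and inhibitor 1 was lowest. Cd22 fell 5.16-fold (log2 SE 0.40, adjusted p = 0.0062), and its call held with each library left out. Cd22 stood at 72.8 ± 23.7 in vehicle knees and differed between inhibitor and vehicle too (log2 difference -2.29, SE 0.40, adjusted p = 0.023). The signalling chains Cd79a and Cd79b fell 3.16-fold and 3.2-fold (adjusted p = 0.033 and 0.045), the immunoglobulin constant regions Ighm and Igkc 2.38-fold and 3.44-fold (adjusted p = 0.015 and 0.022). Cd72, an inhibitory receptor, fell 4.46-fold (adjusted p = 0.013), Bank1, a scaffold of B cell signalling, 3.26-fold (adjusted p = 0.018) and the tetraspanin gene Cd37 2.18-fold (adjusted p = 0.021). Of these 7, Cd79a and Cd79b kept their calls in 2 and 1 of 9 fits with a library left out, with adjusted p up to 0.11 (without sham 2) and 0.15 (without sham 1), and the others in 7 or 8 of 9. Without sham 1 or sham 2, 4 members passed, and without inhibitor 1, 7. Lck, a T cell kinase whose exons overlap another gene, fell 4.79-fold (adjusted p = 0.016) as 1 of the 3 T and NK cell genes tested, a call that was lost without sham 1 or 2 (adjusted p up to 0.092, without sham 1).

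Erythroid genes had 4 of 29 members lower, a median of -0.95 and all 29 log2 fold changes below 0. Ppox (chr1:171275990-171281186, minus strand), an enzyme of heme synthesis, stood at 369, 421 and 354 in sham and 87.8, 83 and 197 in inhibitor 1 to 3, with inhibitor 3 the nearest to sham (3.17-fold, log2 SE 0.29, adjusted p = 0.0086). Its call held with each of the 9 libraries left out. The vehicle knees stood at 388 ± 63.8, close to sham, and inhibitor against vehicle gave a log2 difference of -1.69, SE 0.29, adjusted p = 0.023. Kel, a blood group protein, fell 3.6-fold (adjusted p = 0.028), Tspo2, a membrane protein of erythroblasts, 2.79-fold (adjusted p = 0.026) and Sptb, spectrin of the red cell skeleton, 2.18-fold (adjusted p = 0.013). The globin gene Hbb-bs and the heme enzyme gene Alas2 did not pass (log2 fold changes -0.84 and -0.58, adjusted p = 0.34 and 0.39). With 1 library left out the list count lay between 1 without sham 1 and 9 without inhibitor 3; Kel was lost without sham 1, 2 or 3, vehicle 1 or inhibitor 2 (adjusted p up to 0.10, without inhibitor 2), Tspo2 was lost without sham 1, 2 or 3 or inhibitor 2 (adjusted p up to 0.10, without sham 2) and Sptb was lost without sham 1 (adjusted p = 0.074). The platelet list had 1 of 15 members higher, Pf4, and 2 lower, beside 1.27% and 2.68% of all genes, and a median of -0.33. Itga2b, the fibrinogen receptor subunit, fell 2.45-fold (log2 SE 0.23, adjusted p = 0.0083) and kept its call with each library left out. Nbeal2, a granule gene whose exons overlap another gene, fell 1.91-fold (adjusted p = 0.026; called in 4 of 9 such fits, adjusted p up to 0.13 without sham 1).

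Cell cycle genes fell in 4 of 26 members, with all 26 log2 fold changes below 0 and a median of -0.77. Bub1b (chr2:118598211-118641591, plus strand), a kinase of the spindle checkpoint, stood at 337, 278 and 326 in sham and 62.2, 119 and 116 in inhibitor 1 to 3. Inhibitor 1 was lowest, the groups did not overlap, and the fall was 3.17-fold (log2 SE 0.24, adjusted p = 0.0032) in a call that held with each of the 9 libraries left out. Cyclin B2 (Ccnb2), the mitotic kinase Plk1 and the spindle motor Kif11 fell 2.35-fold, 2.1-fold and 1.99-fold (adjusted p = 0.038, 0.039 and 0.038), in calls kept by 3, 1 and 2 of 9 fits with a library left out (adjusted p up to 0.20, 0.15 and 0.19 without sham 1). The proliferation marker Mki67 stood at 3045, 2815 and 2348 and 461, 619 and 1686. Inhibitor 3 was nearest to sham, and the gene did not pass (log2 fold change -1.57, adjusted p = 0.11).

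All 4 of these lists lay below the sham mean in each inhibitor library. On the scale of log2 of the normalised count plus 0.5, the median difference from the sham mean was -1.20, -1.02 and -1.48 for neutrophil granule genes in inhibitor 1 to 3. It was -1.57, -1.02 and -0.88 for B lineage and -1.40, -0.94 and -0.40 for erythroid genes, and -1.52, -0.63 and -0.46 for cell cycle genes. Inhibitor 1 had the lowest median in all but the granule list, where inhibitor 3 did. The sham libraries ranged from -0.27 to 0.48 for granule, -0.33 to 0.16 for B lineage, -0.33 to 0.27 for erythroid and -0.26 to 0.29 for cell cycle genes. Inhibitor 3 was thus close to sham 3 in the erythroid and cell cycle lists. In vehicle 1 to 3 the granule list was at -0.77, -0.84 and -0.82 and the B lineage list at -0.32, -0.56 and -0.46. The erythroid list was at -0.42, 0.34 and -0.75 and the cell cycle list at -0.68, -0.16 and -0.51 there. Summed over members, granule genes came to 10090.0, 9050.0 and 14800.0 normalised counts in sham 1 to 3 and 4342, 7611 and 4582 in inhibitor 1 to 3, and mature neutrophil genes to 16200.0, 12810.0 and 15100.0 and 9469, 18980.0 and 8284. The part that the amount of marrow in each sample had in these falls was not tested.

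**Figure D3:**
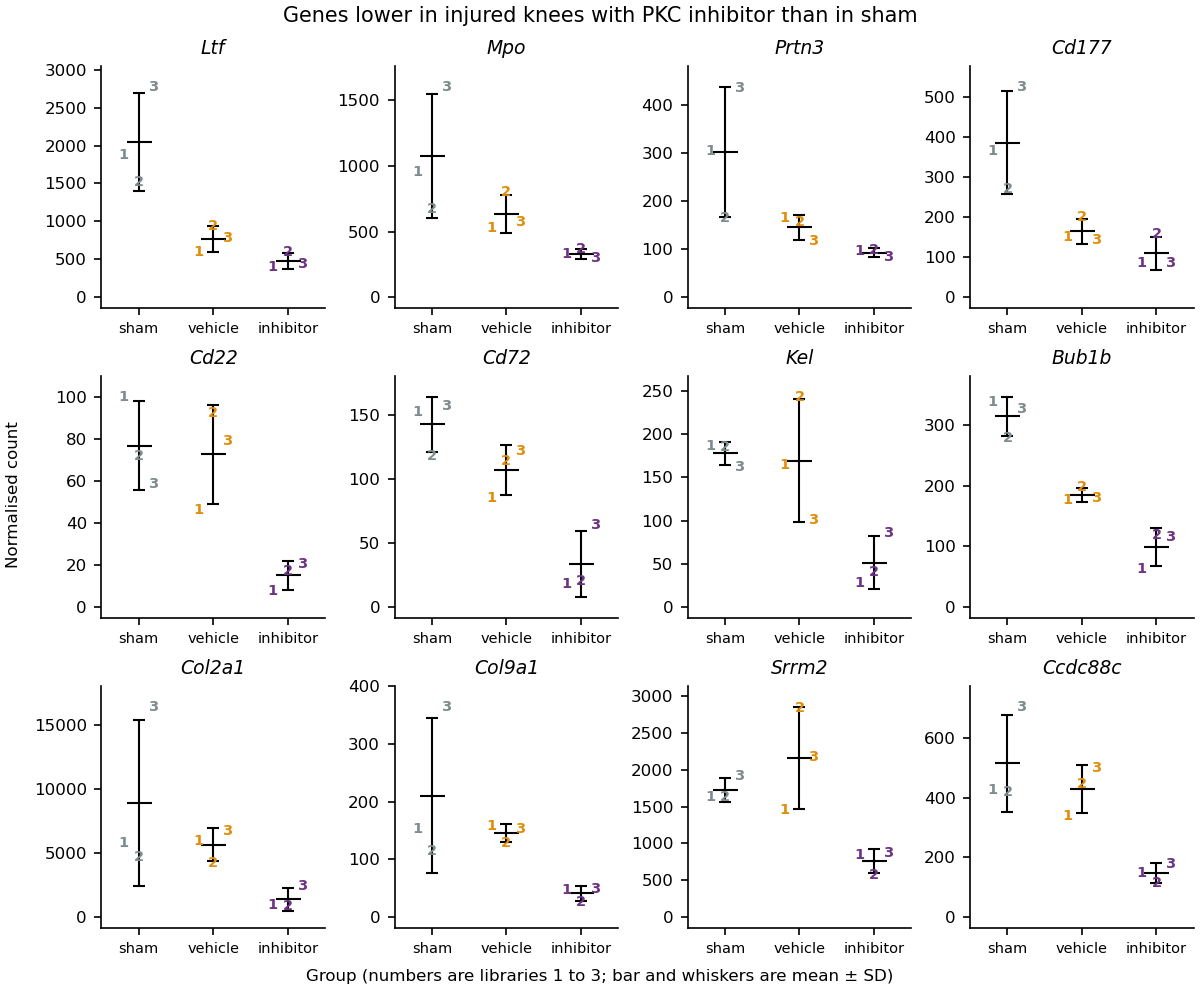
Normalised count (vertical axis, from 0, scaled per gene) of 12 genes that fell, in sham, vehicle and inhibitor knees; digits are libraries 1 to 3, and bars with whiskers are mean ± SD. The 3 inhibitor libraries lie below the 3 sham libraries in every panel; the vehicle mean is 2155 ± 693 for Srrm2 and 169 ± 70.9 for Kel, beside 1725 ± 160.4 and 178 ± 13.4 in sham.

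Cartilage genes fell in 6 of 24 tested members and rose in none, with 23 log2 fold changes below 0 and a median of -1.23. Col2a1 (chr15:97975602-98004695, minus strand), the main collagen of cartilage, stood at 5775, 4667 and 16400.0 in sham 1 to 3 and 947, 847 and 2438 in inhibitor 1 to 3. Col9a1, a collagen bound to its fibrils, stood at 154, 114 and 364 and 47.2, 26.9 and 49.3. Sham 3 was far above sham 1 and 2 in both, and still no inhibitor library reached any sham library. Col2a1 fell 6.35-fold (log2 SE 0.58, adjusted p = 0.037) and Col9a1 5.17-fold (log2 SE 0.41, adjusted p = 0.011). Without sham 3, whose cartilage level is the highest, Col9a1 kept its call, whereas Col2a1 was lost without sham 1 or 3, vehicle 1 or 3 or inhibitor 1 or 2 (adjusted p up to 0.10, without inhibitor 2). The call of Col2a1 was also lost in the fit of the 6 compared libraries (adjusted p = 0.082), with protein-coding genes alone (0.066), with voom weights (0.12) and with the muscle covariate (0.17), and that of Col9a1 in the fit of the 6 libraries (adjusted p = 0.058). Col11a2 and Col10a1, collagens of cartilage fibrils and of the hypertrophic zone, fell 4.09-fold and 4.22-fold (adjusted p = 0.031 and 0.042). Comp, a matrix glycoprotein of cartilage and tendon, fell 2.37-fold (adjusted p = 0.041), and Sox6, a chondrocyte transcription factor, 1.92-fold (adjusted p = 0.024). With 1 library left out these 4 were called in 2, 4, 1 and 5 of 9 fits, with adjusted p up to 0.069 and 0.15 (both without inhibitor 2), 0.15 (without sham 3) and 0.09 (without sham 1). The muscle covariate ended the calls of Col11a2, Col10a1 and Comp (adjusted p = 0.13, 0.16 and 0.054). Over the list, DESeq2 called 12 and limma voom 2 members. The aggrecan gene Acan stood at 392, 336 and 879 and 95.3, 112 and 282 (log2 fold change -1.73, adjusted p = 0.099), and Sox9, the master regulator of chondrocytes, at 29 ± 13.5 and 27.6 ± 1.51 (adjusted p = 0.93). The list count was 1 without inhibitor 2, 3 without inhibitor 1 and 12 without inhibitor 3. In vehicle knees Col2a1 stood at 5654 ± 1291 and Col9a1 at 146 ± 15.8 (SD, n = 3). The part that the amount of cartilage in each sample had in these values was not tested.

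Of 19 osteoblast and osteocyte genes, Pdpn was the one that rose, beside 1.27% of all genes, and none fell, and Bglap, osteocalcin, was at a log2 fold change of -0.91 with an adjusted p of 0.18. Without inhibitor 3, 8 of these genes passed. Of 12 osteoclast genes, Mmp9 and Clcn7, a lysosomal chloride transporter, fell (2.01-fold, adjusted p = 0.035 for Clcn7), beside 2.68% of all genes. With 1 library left out Clcn7 was called in 1 of 9 fits (adjusted p up to 0.11, without sham 1) and Mmp9 in 2.

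Genes of nuclear speckles and RNA processing fell in 5 of 35 members, while the median of the list was -0.18. Srrm2 (chr17:23790532-23824741, plus strand), a scaffold of nuclear speckles, stood at 1629, 1636 and 1910.0 in sham 1 to 3, 845, 572 and 872 in inhibitor 1 to 3 and 1452, 2839 and 2176 in vehicle 1 to 3. Safb2 (chr17:56560965-56584585, minus strand), a nuclear matrix protein that binds RNA, stood at 984, 619 and 1309 in sham, 255, 190.5 and 419 in inhibitor and 945, 979.5 and 849.8 in vehicle 1 to 3. The inhibitor libraries were below every other library in both genes. Against sham, Srrm2 fell 2.26-fold (log2 SE 0.25, adjusted p = 0.018) and Safb2 3.38-fold (log2 SE 0.31, adjusted p = 0.0093). Against vehicle, the log2 differences were -1.5, SE 0.25, adjusted p = 0.023 for Srrm2 and -1.69, SE 0.30, adjusted p = 0.028 for Safb2. Safb, the paralogue next to Safb2 that may share reads with it, fell 2.26-fold (adjusted p = 0.012). The splicing factor gene Srsf4 and the poly(A)-binding protein gene Pabpn1, whose exons overlap another gene, fell 1.73-fold and 2.06-fold (adjusted p = 0.035 and 0.039). The call of Safb2 held with each library left out; that of Srrm2 was lost without sham 1, 2 or 3 or inhibitor 2 (adjusted p up to 0.067, without inhibitor 2), that of Safb was lost without sham 1 or 3 (adjusted p up to 0.066, without sham 1), and those of Srsf4 and Pabpn1 were kept in 2 and 4 of 9 fits (adjusted p up to 0.15 without sham 1 and 0.16 without sham 3). The list count was 1 without sham 1 or 3 (Safb2 itself).

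Several of the largest falls lay outside the lists, and Ccdc88c, a regulator of Wnt signalling, in the list of TGF-beta, BMP and Wnt genes. Ccdc88c stood at 427, 418 and 703 in sham and 149, 113 and 179 in inhibitor 1 to 3 (3.52-fold, log2 SE 0.26, adjusted p = 0.0032), with the vehicle knees at 429 ± 81.3. Troap, a spindle protein, stood at 114, 68.2 and 81.1 and 11.2, 10.9 and 26 (5.82-fold, log2 SE 0.38, adjusted p = 0.0032), and Cep152, which starts centriole duplication, at 110.5, 113 and 181 and 25.5, 28.1 and 32.5 (4.69-fold, log2 SE 0.33, adjusted p = 0.0032). In these 3 genes the groups were apart, and each call held with every library left out. The kinase gene Wnk4 and the nuclear protein gene Samd11 fell 6.2-fold and 5.25-fold (adjusted p = 0.0076 and 0.0032). Prss34, a protease of basophils and mast cells, fell 5.14-fold (adjusted p = 0.0062), and Ache, the acetylcholinesterase, which red cells also carry, 5.6-fold (adjusted p = 0.01). H2-Q5, a class I MHC gene annotated as a polymorphic pseudogene, fell 4.89-fold (adjusted p = 0.0032) and may share reads with close copies. All 5 calls held with every library left out. Tspoap1 and Ankle1 fell 9.25-fold and 7.06-fold (adjusted p = 0.024 and 0.038) with calls in 4 and 2 of 9 such fits (adjusted p up to 0.097 and 0.13, both without inhibitor 2). The keratin gene Krt1 of epidermis fell 8.59-fold (adjusted p = 0.02) and was lost without sham 1 or 2 or inhibitor 2 (adjusted p up to 0.093, without sham 1). The unnamed genes Gm47761 and Gm46349 fell 5.96-fold and 5.62-fold (adjusted p = 0.031 and 0.041; calls in 4 and 4 of 9 fits, adjusted p up to 0.10 and 0.15, both without sham 1).

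The remaining large rises were in single genes. Akr1b8, an aldo-keto reductase, stood at 8.14, 9.18 and 1.89 in sham and 39, 52.6 and 77.9 in inhibitor 1 to 3 (8.13-fold, log2 SE 0.48, adjusted p = 0.0052), with no overlap and a call that held with each of the 9 libraries left out. Rrad, a small GTPase of muscle and heart that responds to stress, rose 6.45-fold with an adjusted p of 0.0098, and its call was lost without sham 1 (adjusted p = 0.056). Chl1, a neural adhesion molecule, stood at 1.16, 3.93 and 0 in sham and 7.5, 85.3 and 70.1 in inhibitor 1 to 3. Inhibitor 1 was close to sham and inhibitor 2 and 3 far above it, and the gene rose 27.8-fold (log2 SE 1.07, adjusted p = 0.039). Tnfrsf12a, the receptor of the cytokine TWEAK, stood at 2.33, 0 and 20.7 and 69.8, 49.9 and 42.8 (8.15-fold, log2 SE 0.76, adjusted p = 0.049), with sham 3 the nearest to the inhibitor libraries. Chl1 and Tnfrsf12a were called in 1 and 2 of 9 fits with a library left out (adjusted p up to 0.19 without sham 1 for both).

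**Figure D4:**
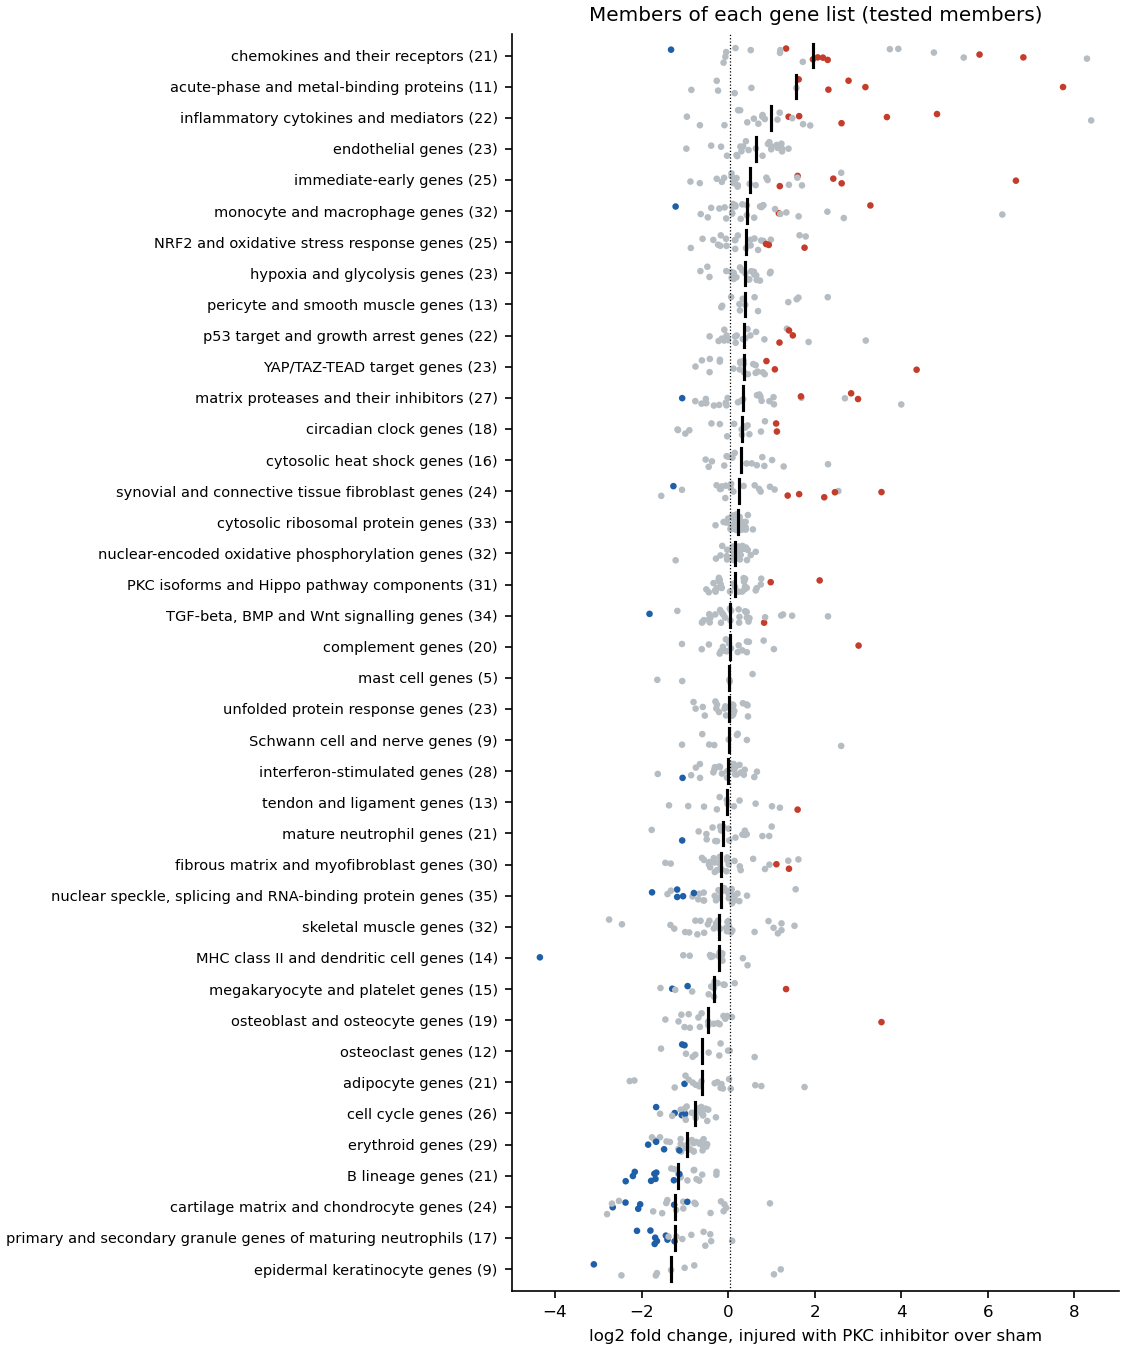
Log2 fold change, inhibitor over sham (horizontal axis), of each tested member of each gene list; red members rose, blue members fell, grey ones did not pass, black bars are list medians, and the dotted line is the median of all tested genes. Lists run from chemokines, with a median of 1.96, at the top to epidermal keratinocyte genes, with -1.32 over 9 members, at the bottom.

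Muscle, fat and vessel genes turned on 1 library. None of 32 skeletal muscle genes passed, and their median levels relative to the sham mean were 1.17, -2.18 and -1.30 in inhibitor 1 to 3. The contractile gene Acta1 stood at 2821, 3727 and 7019 in sham and 7942, 1115 and 1737 in inhibitor 1 to 3. Inhibitor 1 was above every sham library and inhibitor 2 and 3 below them all. Without inhibitor 1, 16 muscle genes fell, none rose and the median was -1.81 in place of -0.21. Endothelial genes had a median of 0.64 with and -0.35 without that library, and mural genes of 0.40 and -0.31. Pecam1, an adhesion molecule of endothelium, stood at 150.0, 164 and 202 in sham and 531, 118 and 152 in inhibitor 1 to 3. Inhibitor 1 was above every sham library, and inhibitor 2 and 3 were near the lowest of them. With all libraries, none of 23 endothelial and 13 mural genes passed. At an unadjusted p under 0.05, edgeR found 1 muscle, 0 endothelial and 1 mural gene, beside 2482 of all 13823 tested genes. DESeq2 called 1 muscle gene and neither of the other kinds, and limma voom called 0 in the 3 lists. The water channel gene Aqp1 of vessels turned from a log2 fold change of 0.21 (adjusted p = 0.89) to -0.87 (adjusted p = 0.03). Adipocyte genes had 1 of 21 members lower, beside 2.68% of all genes, and 7 lower without inhibitor 1. With all libraries it was the fatty acid synthase gene Fasn (2.01-fold, adjusted p = 0.046), which lost its call with any 1 library left out.

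**Figure D5:**
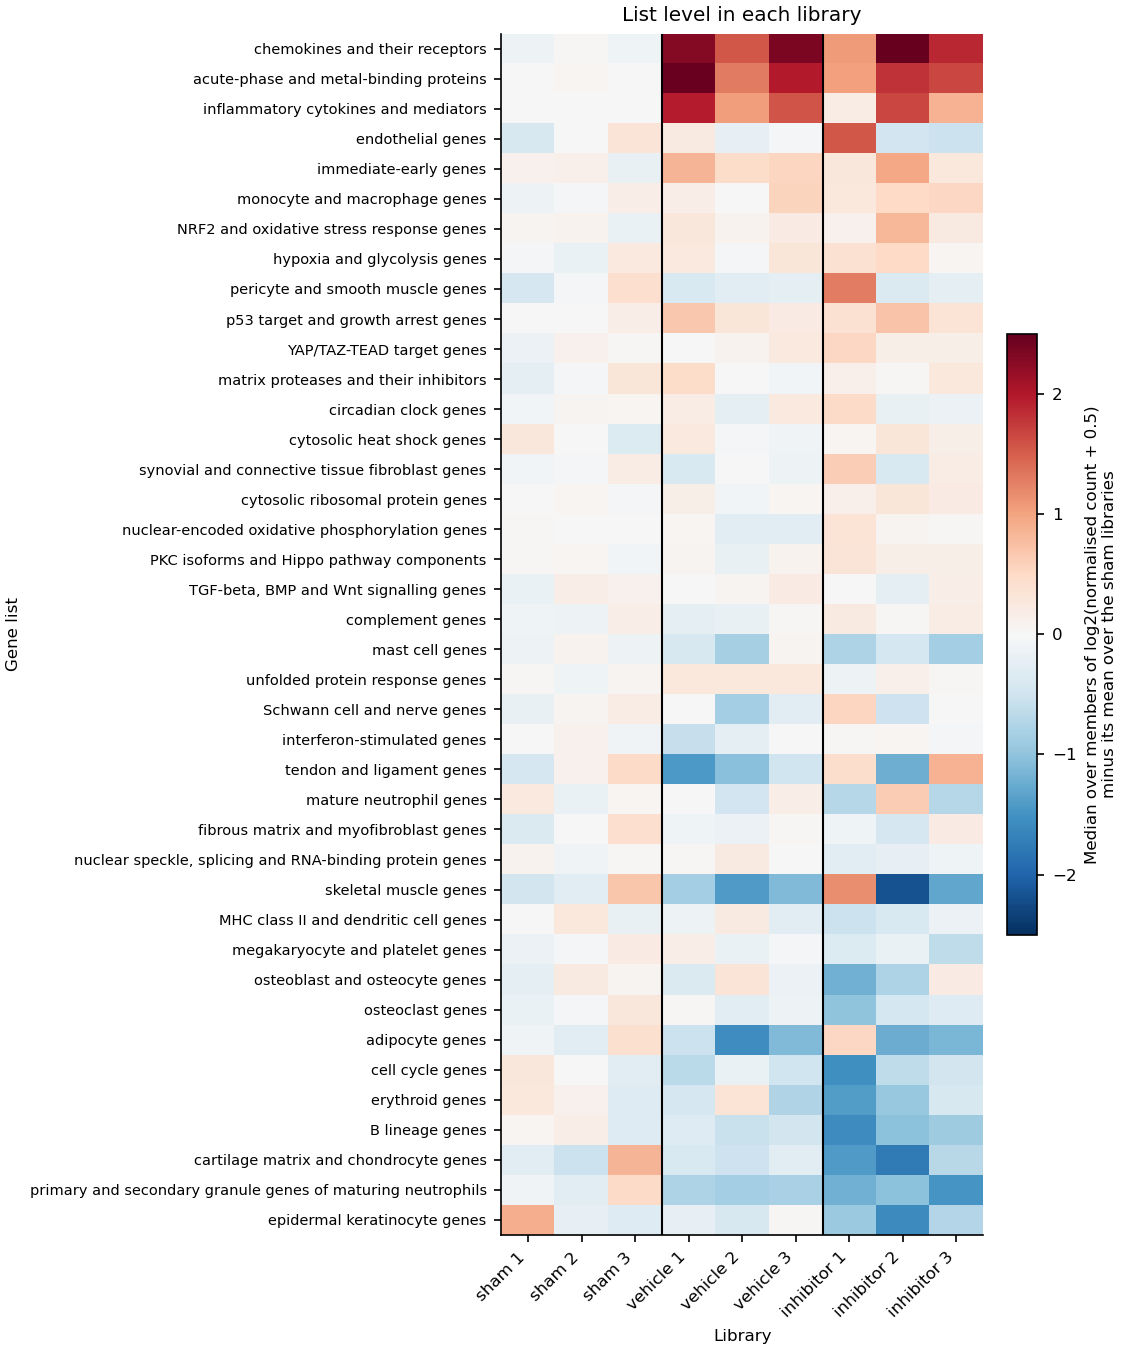
Level of each gene list in each of the 9 libraries: the colour is the median over members of log2(normalised count + 0.5) minus its mean over the sham libraries (red higher, blue lower). Inhibitor 1 differs from inhibitor 2 and 3 in the muscle (1.17, -2.18 and -1.30), endothelial (1.54, -0.48 and -0.54) and adipocyte (0.51, -1.24 and -1.15) rows, while the neutrophil granule row is below sham in all 3.

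The other lists had 1 call or none each. Interferon-stimulated genes had 1 of 28 lower, beside 2.68% of all genes, the transcription factor gene Stat2 (198 ± 9.68 in sham and 95.5 ± 13.4 in inhibitor knees, 2.08-fold, log2 SE 0.22, adjusted p = 0.016), whose call was lost without sham 1 or 3 or inhibitor 2 (adjusted p up to 0.071, without sham 1). MHC class II and dendritic cell genes had 1 of 14 lower, beside the same 2.68%, the lectin gene Clec9a of cross-presenting dendritic cells. It had 26 counts over the sham and 2 over the inhibitor libraries, a ratio after scaling, sham over inhibitor, of 28.2 (95% interval 7.06 to 245), and its exons overlap another gene. By edgeR its fall was 20.4-fold (adjusted p = 0.033). That call was lost without sham 2 or 3, vehicle 3 or inhibitor 1 or 2 (adjusted p up to 0.13, without inhibitor 2). No mast cell or Schwann cell gene passed of 5 and 9 tested by edgeR, with 0 and 1 called by DESeq2 and 0 by limma voom. At an unadjusted p under 0.05, edgeR found 2 of each, beside 2482 of all 13823 tested genes. Tendon and ligament genes had 1 of 13 higher, beside 1.27% of all genes, namely Egr1, which is also an immediate-early gene.

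The vehicle knees were set against the same sham libraries, so both comparisons share them. The median log2 fold change of the chemokine list was 1.96 in inhibitor and 2.06 in vehicle knees, that of the cytokine list 0.99 and 1.6, and that of the acute-phase list 1.58 and 2.2. For neutrophil granule genes the medians were -1.24 and -1.03, for B lineage genes -1.15 and -0.41, for erythroid genes -0.95 and -0.24, and for cartilage genes -1.23 and -0.56. Il33 stood at 84.7, 85.6 and 92.8 in vehicle 1 to 3, Arg1 at 518, 448 and 997 and Timp1 at 425, 254 and 394. None of these 3 passed the direct test between inhibitor and vehicle knees (adjusted p = 0.44 for Il33, 0.90 for Arg1 and 0.62 for Timp1).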

How the data were processed

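RNA was taken from mouse knees with TRIzol, freed of ribosomal RNA and sequenced on a DNBSEQ-G400 as paired-end reads of 100 bases, per the labels' protocols. Reads were aligned with HISAT2, whose version is not given in the sources used here, to mm10, per the submitters' processing notes. The authors counted fragments per gene with featureCounts 2.0.1 against GENCODE M25, per the file headers. The counts were strand-specific and summed by gene name, and reads that map to several places or overlap several genes were counted for each (options -p -s 2 -M -O), so copies of a gene share reads. The deposited table holds raw counts for 55291 genes, 28362 of them without a count in the 9 libraries used. Another 27 columns, whose codes match no label, were not used. Libraries were assigned by column name; the input files stand in another order in the header's command, and which order is right was not checked further.

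The 9 libraries (sham, injury with vehicle, injury with inhibitor, 3 each) were fitted together with edgeR 4.0.16 (R 4.3.3, filterByExpr, TMM, robust quasi-likelihood test, two-sided, Benjamini-Hochberg over 13823 genes, threshold 0.05). The contrast was inhibitor minus sham, and SE is the size of the log2 fold change over the root of F. A group without counts was set to a floor of 3 counts per library, and ratios over 1 to 3 counts carry exact binomial 95% intervals, both for counting error only. Gene lists were described by counts and medians. Named genes are the 15 largest rises and falls among called genes with a mean of at least 20 normalised counts that neither overlap another gene nor belong to a multicopy RNA class, all called list members, the most abundant members of each list and a set of joint injury genes. Adgre1, Bglap, Cd163, Csf1r, Csf3r, Cxcl1, Cxcl2, Cxcl5, Cxcr2, Jun, Lcn2, Myc, Nemf and Sox9 were named after their values were seen. Some items are not reported here. The members and lists were chosen with earlier results of these data known. The fit was tested on simulated data, where it called 15 of 100 genes changed 2-fold, 91 of 100 changed 4-fold and 9 of 13623 unchanged genes. A gene that did not pass is thus not shown to be unchanged. The changed genes were drawn from the better counted genes alone, so these shares do not cover genes with few counts. The simulated counts lacked the differences in sample make-up that set inhibitor 1 apart, so the rate of false calls here may differ. Alternatives were DESeq2 1.42.0, limma 3.58.1 voom weights, other scaling, filters, covariates and libraries left out. Promoters came from RefSeq.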

Additional observations from a re-analysis of the deposited data

Results flagged for a closer look

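Of 220 genes that the naming rule takes, 15 differed between inhibitor and vehicle knees by edgeR's quasi-likelihood test (adjusted p from 0.021 to 0.044), beside 101 of 13823 tested genes (0.731%). Of the 220, 112 had been taken up with a call against sham, so the 15 are a description. On the log2 scale, inhibitor minus vehicle was -2.28 for Wnk4, -2.32 for Troap, -2.22 for Samd11 and -2.29 for Cd22. It was -2.27 for H2-Q5, -1.53 for Cep152, -1.69 for Ppox and -1.76 for Tspo2. Among RNA-processing and Wnt genes it was -1.5 for Srrm2, -1.10 for Safb, -1.69 for Safb2, -1.38 for Pabpn1 and -1.55 for Ccdc88c. Cbr2, a carbonyl reductase, was at 1.32, and Slfn5, an interferon-induced nuclear protein that did not pass against sham (adjusted p = 0.10), at 1.08. The comparison of inhibitor with vehicle shares the inhibitor libraries with that of inhibitor with sham.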

How the results depend on the processing

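Against 546 genes called, the fit of the 6 compared libraries alone called 198, DESeq2 885, the fit without a filter 1056 and that with muscle level as a covariate 1217, while RLE scaling (540), protein-coding genes alone (502) and voom quality weights (578) stayed within 1.5 times. With 1 library left out the count ran from 141 to 841, and without inhibitor 1 and 2 together, chosen after seeing the data, it was 174. Every call shared between the full fit and an alternative kept its direction. Called genes had groups that did not overlap, and the fits reuse the same counts, so this was nearly fixed in advance. With a replicate block the count was 420, of which 382 were shared. Deviations from the group means correlated at -0.241, -0.0138 and -0.0854 between same-numbered libraries of sham and inhibitor. Between differently numbered ones the correlations ran from -0.167 to 0.202. With 3 libraries a group, these values cannot decide whether the numbers pair the samples, and no label says so. Of 2006 pairs of a named gene that has a call and an alternative, 526 ended the call and 0 reversed it. These pairs include the setting chosen after seeing the data, and the lack of reversals has the same limit. Aqp1, not called, turned to -0.87 without inhibitor 1 and was 0.58 without inhibitor 2. The causes of these shifts were not tested. Depth outside 7SL RNA, as low as 3.28 M counts (vehicle 1), limits genes with few counts. Il6 was too low to test, and the part of depth in that was not tested. With 3 libraries a group, and 1 inhibitor library apart, calls near the threshold are the least firm.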

Other observations

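Some gene groups outside the lists held several calls in 1 direction. They were chosen after their values were seen and are given as a description, beside 1.27% of all genes called higher and 2.68% called lower. Annexins, which bind membranes in the presence of calcium, had 4 of 9 tested members higher (Anxa2, Anxa4, Anxa5 and Anxa8), none lower and all 9 log2 fold changes above 0, with a median of 0.76. Of 11 S100 proteins, S100a4, S100a6 and S100a10 were higher, with 7 log2 fold changes above 0 and 4 below. Of 7 galectins, Lgals1 and Lgals3 were higher, with 5 above 0 and 2 below. Lgals3, galectin-3 of macrophages, stood at 186, 190.1 and 217 in sham 1 to 3 and 442, 822 and 496 in inhibitor 1 to 3 (2.98-fold, log2 SE 0.25, adjusted p = 0.0048). Dab2, an endocytic adaptor, stood at 194, 195 and 179 and 619, 582 and 589, with narrow groups and no overlap (3.14-fold, log2 SE 0.19, adjusted p = 0.0012). Errfi1, a feedback inhibitor of the EGF receptor, rose 3.8-fold (adjusted p = 0.0036), and Plin2, which coats lipid droplets, 3.94-fold (adjusted p = 0.0059). Of 38 proteasome subunit genes, 2 were higher, Psma3 and Psmb4, and 35 log2 fold changes were above 0.

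On the other side, class I MHC genes had 5 of 15 members lower (H2-K1, H2-Q5, H2-Q6, H2-Q7 and H2-T23), all 15 log2 fold changes below 0 and a median of -0.94. Their copies may share reads, and H2-Q5 is annotated as a polymorphic pseudogene. Replication-dependent histone genes, which are transcribed during DNA synthesis and lack poly(A) tails, had 10 of 57 members lower, all 57 log2 fold changes below 0 and a median of -0.74. The kinesin motor genes had 4 of 36 lower (Kif11, Kif14, Kif15 and Kifc1), with 22 log2 fold changes below 0 and 14 above. The centrosomal Cep genes had 4 of 36 lower (Cep128, Cep152, Cep164 and Cep250), with 29 below 0 and 7 above. Copies of the 5S ribosomal RNA gene had 25 of 30 members lower at a median of -3.04. These copies share reads, so they are not separate measurements.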
